A study of Mus musculus with 40 samples.

Results

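The genes of MHC class II antigen presentation were followed across 40 cortex libraries of Trem2 H157Y knock-in mice. The members were the genes of the count table named H2-Aa, H2-Ab1, H2-Eb1, H2-DMa, H2-DMb1, H2-DMb2, H2-Oa, Cd74 and Ciita, and all 9 were found among the 43346 genes listed. Bulk RNA sequencing of poly-A RNA from pulverized cortex gave read counts per gene. The 4 groups held 10 mice each, 5 females and 5 males. The WT and Hom mice of the non-amyloid cohort carried no amyloid transgene and were 6 months old, and Hom mice were homozygous for the H157Y change in the endogenous Trem2 gene. The WT and Hom mice of the amyloid cohort were hemizygous for the 5xFAD transgenes, which the neuronal Thy1 promoter drives, and were 8.5 months old. Transgene and age therefore cannot be told apart in any comparison of the cohorts. The knock-in was made with CRISPR/Cas9 in zygotes of B6/CBA mice, and the methods describe WT and Hom mice as littermates. The mice came from founder 1 unless stated otherwise, so the allele rests on 1 founder line.

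MHC class II molecules are heterodimers of an alpha and a beta chain that present peptides from endosomes to CD4+ T cells. The invariant chain Cd74 guides new dimers to the endosome and fills their groove, cathepsins trim it, and the H2-DM dimer exchanges the remaining fragment for peptide, while the H2-O dimer restrains H2-DM. Ciita is the coactivator that assembles on the RFX, CREB and NF-Y factors at class II promoters and is itself induced by interferon gamma. In the brain, microglia carry little class II at rest and more when activated, and border macrophages and dendritic cells carry it constitutively.

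H2-Aa and H2-Ab1 encode the chains of I-A, and H2-Eb1 the beta chain of I-E. On mm10, the build of the count table, the 7 H2 members lay on chromosome 17 between H2-Oa (chr17:34092340-34095234) and H2-Eb1 (chr17:34305877-34316199), 14 to 14.3 Mb from Trem2 (chr17:48346401-48354147). Their order by start was H2-Oa, H2-DMa (chr17:34135182-34139101), H2-DMb2 (chr17:34143307-34151553), H2-DMb1 (chr17:34153072-34160230), H2-Ab1 (chr17:34263209-34269418), H2-Aa (chr17:34282744-34287827) and H2-Eb1. Cd74 and Ciita lay on other chromosomes than Trem2, Ciita at chr16:10488178-10527564. Genes were tested if 4 or more libraries held 10 counts or more, which left 21253 genes with all 9 members among them. The H2 members and Cd74 reached 10 counts in all 40 libraries, and Ciita did so in 15.

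The promoters of class II genes share an X box bound by RFX and a Y box bound by NF-Y, and those in the reference are shown as background. Whether these boxes had a part in the values that follow was not tested. RefSeq windows on GRCm38.p6, from 250 bases before to 50 bases after each start, were held for H2-Aa, H2-Eb1, H2-DMa, H2-DMb1, H2-DMb2 and H2-Oa, and for the non-members H2-Ob and H2-Eb2. H2-Ab1, Cd74 and Ciita had no entry. Stretches before the start, on the strand of the gene and 5′ to 3′, were as follows, with capitals marking GNAAC, the start of an X box, and TGATTGG, the Y box.
H2-Aa (chr17:34287847-34287924, minus strand): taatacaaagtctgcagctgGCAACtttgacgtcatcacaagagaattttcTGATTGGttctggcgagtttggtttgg
H2-Eb1 (chr17:34305756-34305832, plus strand): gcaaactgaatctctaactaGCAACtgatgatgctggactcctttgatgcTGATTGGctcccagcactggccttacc
H2-DMb1 (chr17:34153077-34153154, plus strand): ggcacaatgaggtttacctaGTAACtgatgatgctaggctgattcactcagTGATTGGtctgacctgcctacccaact
H2-DMb2 (chr17:34145106-34145183, plus strand): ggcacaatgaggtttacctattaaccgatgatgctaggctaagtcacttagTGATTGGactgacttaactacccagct
H2-Oa (chr17:34092283-34092360, plus strand): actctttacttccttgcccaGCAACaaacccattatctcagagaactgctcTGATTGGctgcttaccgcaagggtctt
H2-Ob (chr17:34238798-34238872, plus strand): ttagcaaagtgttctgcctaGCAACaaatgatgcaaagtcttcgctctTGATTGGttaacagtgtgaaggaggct

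GNAAC followed by TGATTGG after a gap of 20 to 30 bases, on either strand, was found in the windows of H2-Aa, H2-Eb1, H2-DMb1, H2-Oa, H2-Ob and H2-Eb2. The same arrangement was found in 0.323% of 32851 promoter windows, TGATTGG alone in 7.82% and GNAAC alone in 84.8%, so GNAAC by itself separates little. The 2 motifs do not overlap in this arrangement. The gap was 26 bases in H2-Aa, H2-DMb1 and H2-Oa, 25 in H2-Eb1 and 23 in H2-Ob. H2-DMb2 held TGATTGG without GNAAC at that distance, and neither of the 2 windows of H2-DMa held TGATTGG. A match of letters is a description of the reference sequence and no measurement of binding.

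Libraries held 41646271 to 105903846 counts, with a median of 77193387. Replicates 19 and 32 of the amyloid cohort stood apart and touch the members, and values without them are given where they end a call, turn a direction or change a value by more than 1.5 times. In amyloid Hom replicate 19, the shallowest library, 139 genes that lie largely beneath a much stronger gene on the opposite strand took 0.299% of counts, against 0.0141% to 0.0186% in the other 39. The methods exclude an unnamed amyloid Hom female for a low share of reads counted to genes and for its strand check, and whether replicate 19, an amyloid Hom female, is that library is not given in the sources used here. In amyloid WT replicate 32, a female, the 9 members summed to 289 normalised CPM (counts scaled to a common library size with TMM), against a group median of 44.0 and a next value of 53.6. All 6 cortical neuron markers examined were detected, with summed levels of 4488 to 5790 CPM. The 5 listed genes of other brain regions, of which 4 were tested, summed to 79.6 to 277 CPM. The H157Y change is a single codon, so the level of Trem2 does not check the genotype labels. Its medians were 55.5 CPM in amyloid WT, 34.3 in amyloid Hom, 10.4 in non-amyloid WT and 10.3 in non-amyloid Hom.

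Levels of different members were compared per kilobase of transcript. In non-amyloid WT cortex the highest median was that of H2-DMa, at 5.21 CPM per kilobase, followed by Cd74 at 2.60, H2-Eb1 at 1.51 and H2-Aa at 1.32. H2-DMb1 (0.766), H2-Ab1 (0.655), H2-DMb2 (0.259), H2-Oa (0.25) and Ciita (0.0198 CPM per kilobase) followed. In amyloid WT cortex Cd74 came first with a median of 9.81 CPM per kilobase, ahead of H2-DMa at 7.08, H2-Aa at 3.92 and H2-Eb1 at 2.90. H2-DMb1 and H2-DMb2 transcripts were 95.4% identical over 848 aligned bases, so reads shared by both could have been split or dropped by the counting, and their values are uncertain to that extent.

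**Figure D1:**
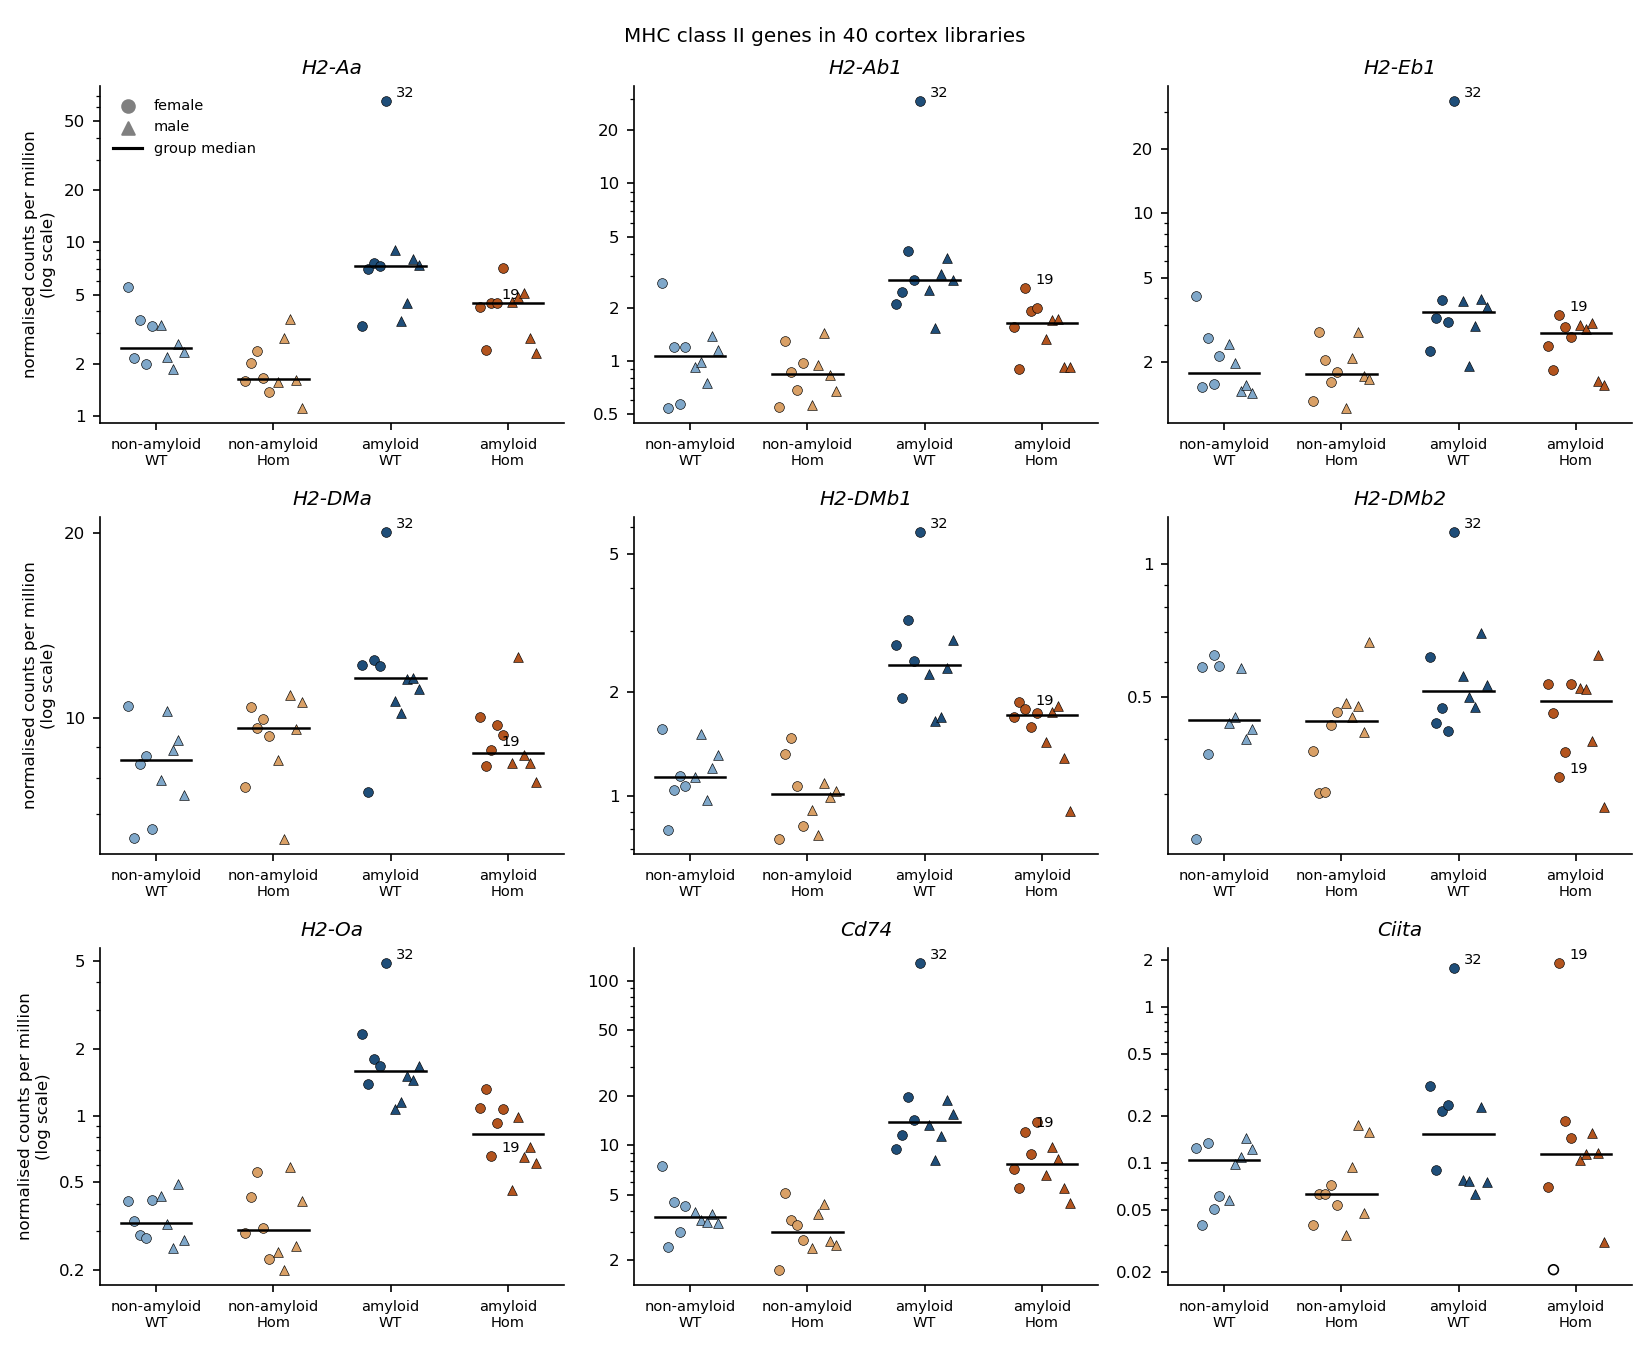
Normalised CPM of the 9 class II genes in each of the 40 libraries on log axes, by group, with circles for females, triangles for males and a line at the group median. An open circle at the lower edge marks the library without a Ciita count, and the numbers mark amyloid WT replicate 32, the highest library of its group in all 9 panels, and amyloid Hom replicate 19, which stands apart in the Ciita panel only.

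The first question was how the members differed between the cohorts in mice of 1 genotype. In WT cortex 7 of the 9 members were higher in the amyloid cohort and passed the test, an edgeR quasi-likelihood adjusted p under 0.05 with a log2 fold change beyond 0.25. Across all genes 7.95% passed, and the median log2 fold change was 1.71 over the members against 0.00 over all genes. The same 7 members passed without amyloid WT replicate 32, as did 7.56% of all genes, and the median was then 0.97. In Hom cortex 3 members passed, against 6.56% of all genes. In bulk tissue, more cells of a type and more RNA per cell cannot be told apart.

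The rise of Cd74 in WT had the highest fitted fold change with all libraries, while H2-Oa was above it without amyloid WT replicate 32 (2.13 against 1.75) and by the ratio of group medians (4.83 against 3.77). The lowest, median and highest values of Cd74 were 2.41, 3.67 and 7.53 CPM in non-amyloid WT and 8.15, 13.8 and 128 CPM in amyloid WT, so that the groups did not overlap. The log2 fold change was 2.65 (SE 0.37, edgeR adjusted p = 4.34e-07), and 1.75 (SE 0.21, adjusted p = 2.10e-08) without amyloid WT replicate 32. In Hom cortex Cd74 ran from 1.76 through a median of 2.96 to 5.13 CPM in the non-amyloid cohort and from 4.44 through 7.73 to 13.8 CPM in the amyloid cohort, a log2 fold change of 1.35 (SE 0.36, adjusted p = 0.0113).

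The I-A and I-E chains rose in WT as well. H2-Aa had values of 1.85, 2.47 and 5.52 CPM (lowest, median, highest) in non-amyloid WT and 3.31, 7.35 and 64.9 CPM in amyloid WT, and its log2 fold change of 2.08 (edgeR adjusted p = 7.47e-05) became 1.13 without amyloid WT replicate 32 (adjusted p = 3.48e-04). H2-Ab1 had 0.546, 1.07 and 2.75 CPM in non-amyloid WT and 1.53, 2.86 and 29 CPM in amyloid WT, and its change of 2.24 (adjusted p = 3.93e-05) became 1.27 (adjusted p = 1.58e-04). H2-Eb1 had 1.43, 1.79 and 4.10 CPM in non-amyloid WT and 1.92, 3.43 and 33.6 CPM in amyloid WT, and its change of 1.58 (adjusted p = 0.00162) became 0.60 (adjusted p = 0.0325). The ranges of each of these chains overlapped between the cohorts, and 1 library set the size of the fold but not the call. In Hom cortex none of the 3 chains passed in the edgeR fit of all libraries, with changes of 1.09 for H2-Aa (adjusted p = 0.0649), 0.81 for H2-Ab1 (0.204) and 0.40 for H2-Eb1 (0.503).

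Without amyloid WT replicate 32, which is not a Hom library but shares the estimate of the spread, H2-Aa and H2-Ab1 also passed in Hom. Their log2 fold changes were then 1.08 (edgeR adjusted p = 9.85e-04) and 0.80 (adjusted p = 0.0289). In all, 5 members passed, as did 6.55% of all genes. With amyloid Hom replicate 19 left out as well, 4 members and 4.6% of all genes passed. H2-Ab1 was no longer among those members (edgeR adjusted p = 0.0801).

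The H2-O and H2-DM genes differed among themselves. H2-Oa, the alpha chain of the dimer that restrains H2-DM, had 0.251, 0.328 and 0.490 CPM in non-amyloid WT and 1.07, 1.59 and 4.87 CPM in amyloid WT, with no overlap. Its log2 fold change was 2.42 in WT (SE 0.24, edgeR adjusted p = 1.65e-10) and 1.27 in Hom (SE 0.24, adjusted p = 2.64e-04). H2-DMb1, a beta chain of H2-DM, also did not overlap in WT, at 0.798 to 1.56 CPM against 1.65 to 5.78 CPM. It rose by 1.19 in WT (adjusted p = 1.04e-06) and by 0.63 in Hom (adjusted p = 0.0152). The alpha chain H2-DMa rose by 0.51 in WT (adjusted p = 0.00171), from a median of 8.55 to one of 11.6 CPM, and its change in Hom was -0.01 (SE 0.11, adjusted p = 0.964). The other beta chain, H2-DMb2, did not pass in either genotype, with changes of 0.33 in WT (adjusted p = 0.309) and 0.07 in Hom (adjusted p = 0.858).

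Ciita was near the limit of detection. Its median was 0.104 CPM in non-amyloid WT and 0.153 CPM in amyloid WT, and the change of 1.71 (SE 0.63) did not pass (edgeR adjusted p = 0.0853). Its highest libraries were amyloid WT replicate 32 at 1.78 CPM and amyloid Hom replicate 19 at 1.90 CPM, while the next values in those groups were 0.313 and 0.187 CPM. Without amyloid Hom replicate 19 the WT change was 1.70 and passed (adjusted p = 0.0184), and with both libraries left out it was 0.66 (adjusted p = 0.310). Amyloid Hom replicate 16 held no Ciita count, which at its depth allows up to 0.0435 CPM.

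The second question was what the H157Y allele changed in the presence of amyloid. All 9 members were lower in Hom than in WT in the amyloid cohort, and none passed the edgeR test at the adjusted threshold, where 0.0753% of all genes did. An unadjusted p under 0.05 was found for 7 of them, against 9.67% of all genes. The median log2 fold change was -1.15 over the members and 0.00 over all genes, and it was -0.58 without amyloid WT replicate 32 and amyloid Hom replicate 19. In other fits some members passed, 4 with DESeq2, 2 with sex as a covariate and 6 in 1 fit of all 40 libraries. These fits called more of all genes too, 1.41%, 1.18% and 2.88%. Limma-voom called no member and 0.118% of all genes, with a median over the members of -0.67. The other normalisations and filters on low counts also called no member.

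H2-Oa had the lowest p of the members. Its values were 1.07, 1.59 and 4.87 CPM (lowest, median, highest) in amyloid WT and 0.460, 0.824 and 1.32 CPM in amyloid Hom, and 8 of the 10 Hom libraries lay below every WT library. The log2 fold change was -1.15 (SE 0.25, edgeR adjusted p = 0.0554), and -0.84 (SE 0.19, adjusted p = 0.139) without both libraries that stood apart. With sex as a covariate it was -1.12 and passed (adjusted p = 0.00810), as it did when amyloid WT replicate 32 was also left out (-0.91, adjusted p = 0.00975). Of its exonic bases 321 (22.8%) overlap the antisense gene BC051537, which had a median of 10 counts.

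H2-Ob, the partner chain of H2-Oa and no member, had medians of 3.0 CPM in amyloid WT and 2.27 CPM in amyloid Hom, a log2 fold change of -0.71 (SE 0.22, edgeR adjusted p = 0.163). Between the cohorts it rose by 2.5 in WT (adjusted p = 3.45e-13) and by 1.62 in Hom (adjusted p = 5.90e-08), and its WT groups did not overlap. The remaining class II chains were close to absent. H2-Ea-ps, the I-E alpha chain that is a pseudogene in this reference, had 3 counts in all 40 libraries together, and H2-Eb2 had 35 counts spread over 16 libraries.

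Cd74 ran from 8.15 through a median of 13.8 to 128 CPM in amyloid WT and from 4.44 through 7.73 to 13.8 CPM in amyloid Hom. The groups overlapped, with 5 Hom libraries below every WT library and 5 WT libraries above every Hom library. The log2 fold change was -1.61 (SE 0.44, edgeR adjusted p = 0.104), and -0.80 (SE 0.20, adjusted p = 0.175) without both libraries that stood apart. DESeq2, which replaced outlying counts of Cd74, gave -0.69 and passed (adjusted p = 0.0277).

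H2-Ab1 had the most negative fitted log2 fold change with all libraries, which did not hold without amyloid WT replicate 32, where H2-Oa was at -0.87 and H2-Ab1 at -0.85, or by the ratio of medians, which was 0.520 for H2-Oa and 0.570 for H2-Ab1. Its values were 1.53, 2.86 and 29 CPM (lowest, median, highest) in amyloid WT and 0.904, 1.63 and 2.58 CPM in amyloid Hom, and 4 Hom libraries lay below every WT library. The change was -1.81 (SE 0.46, edgeR adjusted p = 0.0829), -0.85 without amyloid WT replicate 32 and -0.96 (SE 0.20, adjusted p = 0.0925) without both libraries that stood apart. H2-Aa had 3.31, 7.35 and 64.9 CPM in amyloid WT and 2.31, 4.49 and 7.07 CPM in amyloid Hom. Its change of -1.54 (SE 0.46, adjusted p = 0.14) became -0.60 (SE 0.22, adjusted p = 0.353) without amyloid WT replicate 32. H2-Eb1 had 1.92, 3.43 and 33.6 CPM in amyloid WT and 1.56, 2.74 and 3.33 CPM in amyloid Hom, and its change of -1.31 (SE 0.44, adjusted p = 0.228) became -0.34 (SE 0.17, adjusted p = 0.555). For each of these chains the groups overlapped, and the fitted difference shrank by more than 1.5 times when amyloid WT replicate 32 was left out.

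H2-DMb1 had 1.65, 2.40 and 5.78 CPM in amyloid WT and 0.904, 1.71 and 1.87 CPM in amyloid Hom, and 8 WT libraries lay above every Hom library. The log2 fold change was -0.76 (SE 0.19, edgeR adjusted p = 0.0824), and it passed with DESeq2 (-0.75, adjusted p = 0.0137) and with sex as a covariate (-0.74, adjusted p = 0.0371). Without amyloid WT replicate 32 the change was -0.56 (adjusted p = 0.149), and the call with sex as a covariate was lost (-0.57, adjusted p = 0.0574). H2-DMa ran from 7.59 to 20.1 CPM in amyloid WT and from 7.88 to 12.6 CPM in amyloid Hom, a change of -0.37 (SE 0.12, adjusted p = 0.206). Of its exonic bases, 360 (10.4%) overlap Brd2 on the other strand, and how strand was used in counting is not given in the sources used here. H2-DMb2 had medians of 0.514 and 0.489 CPM, a change of -0.36 (95% interval -0.76 to 0.04, adjusted p = 0.566). Without amyloid WT replicate 32 the change of H2-DMb2 was -0.18.

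Ciita gave no stable direction. The log2 fold change was -0.25 (95% interval -1.84 to 1.34, edgeR adjusted p = 0.914), 0.78 without amyloid WT replicate 32, -1.57 without amyloid Hom replicate 19 and -0.55 without both. Ciita shares 329 exonic bases (3.5%) with Dexi on the opposite strand, which had a median of 1397 counts. In amyloid Hom replicate 19, the library with an excess of counts on opposite-strand genes, Ciita had 81 counts, and the part of that overlap in the value was not tested.

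**Figure D2:**
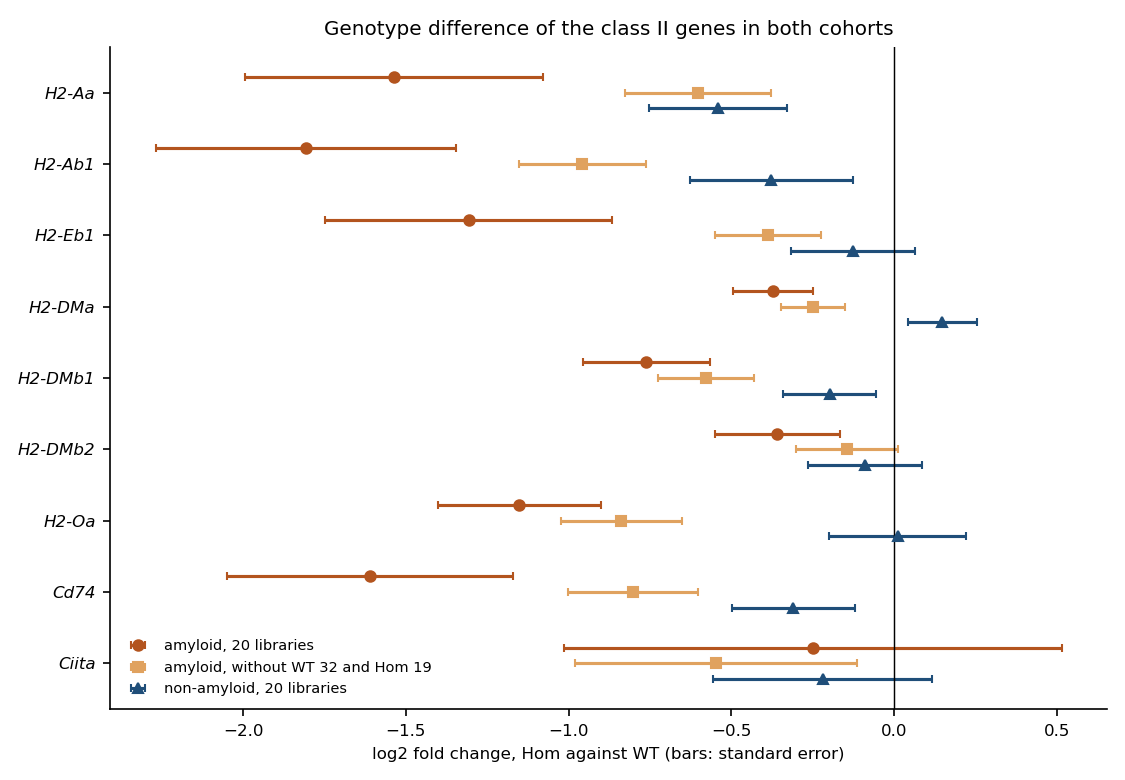
Log2 fold change of Hom against WT for the 9 members with the standard error as bars, in the amyloid cohort with all 20 libraries, in the amyloid cohort without WT replicate 32 and Hom replicate 19, and in the non-amyloid cohort. The amyloid values run from -1.81 for H2-Ab1 to -0.25 for Ciita, they move towards 0 for 8 of the 9 genes when the libraries are left out, and the non-amyloid values lie between -0.54 and 0.15.

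Amyloid WT replicate 32 was high in more than the members. Irf1 and Irf8, transcription factors of the interferon gamma response, were at 2.08 and 1.93 times their group medians. The summed interferon gamma list was at 1.2 times its median, and Ifngr1, Ifngr2, Jak1 and Jak2 were between 0.977 and 1.18 times theirs. Interferon gamma itself, Ifng, had 5 counts there. The summed CPM of 10 microglial genes was 1.4 times its group median, and that of the T cell list 1.54 times. The sums of 6 border macrophage genes and of the dendritic cell list were 0.910 and 0.927 times theirs. Cd4, at 16.4 CPM, made up most of the T cell sum. Cd3g, Cd8a, Cd3e and Cd3d were at 3.29, 2.73, 2.16 and 1.58 times their medians, on 34 counts or fewer. Trac was at 0.989 times its median. Zbtb46 and Flt3, at 14.5 and 7.30 CPM, made up most of the dendritic cell sum. Clec9a (5 counts), Batf3, Ccr7 and Cd209a were at 3.49, 1.44, 1.03 and 0.515 times their medians. Border macrophage genes ranged from 0.462 (Lyve1) to 1.69 times (Ms4a7). The list for meninges and choroid plexus was at 6.32 times its median in this library and at 8.51 times in amyloid Hom replicate 19. In replicate 32 the choroid plexus genes Ttr, Folr1 and Kl were at 60.8, 17.2 and 2.89 times their medians, and the meningeal genes Dcn, Slc6a13, Col1a1 and Lum at 0.745, 0.768, 0.832 and 1.13 times theirs. Ttr was high in other libraries as well, at 608 CPM in amyloid Hom replicate 40, whose class II sum of 18.9 CPM was the lowest of its group. The part of these cells in the class II values was not tested.

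**Figure D3:**
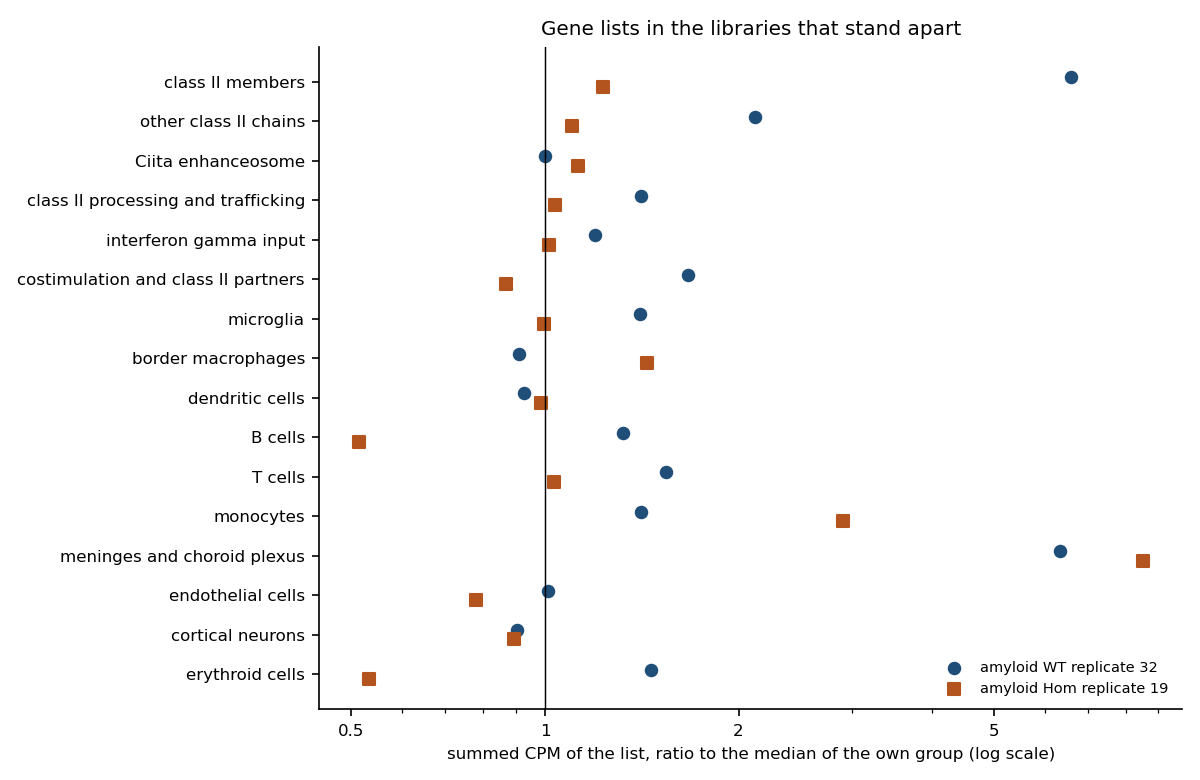
Summed CPM of each gene list in amyloid WT replicate 32 and amyloid Hom replicate 19 as a ratio to the median of their own group, on a log axis with a line at 1. Replicate 32 reaches 6.58 for the class II members and 1.4 for microglial genes, and both libraries are above 6 for the list of meninges and choroid plexus.

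The third question was whether the allele had the same effect without amyloid. In the non-amyloid cohort no member passed the edgeR test, where 0.0329% of all genes did, and DESeq2 and limma-voom also called none. Of the 9 members 7 were lower in Hom, with a median log2 fold change of -0.20, and 1 had an unadjusted p under 0.05 against 4.61% of all genes. That was H2-Aa, with 1.85, 2.47 and 5.52 CPM in WT and 1.12, 1.63 and 3.63 CPM in Hom, where 6 Hom libraries lay below every WT library. Its change was -0.54 (95% interval -0.98 to -0.10, adjusted p = 0.965), and leaving out single libraries moved it between -0.69 and -0.39. The value of -0.39 came without non-amyloid WT replicate 1, and no member then had an unadjusted p under 0.05. H2-Ab1 was at -0.13 and Cd74 at -0.16 without that library.

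For the other members the intervals were wide enough to hold both no difference and a moderate one. Cd74 ran from 2.41 to 7.53 CPM in non-amyloid WT and from 1.76 to 5.13 CPM in non-amyloid Hom, a log2 fold change of -0.31 (95% interval -0.70 to 0.08). H2-Ab1 was at -0.38 (-0.90 to 0.14), H2-Eb1 at -0.13 (-0.52 to 0.27) and H2-DMb1 at -0.20 (-0.49 to 0.10). H2-Oa ran from 0.251 to 0.490 CPM in WT and from 0.201 to 0.584 CPM in Hom, and its change was 0.01 (-0.43 to 0.45). H2-DMa was at 0.15 (-0.07 to 0.37), H2-DMb2 at -0.09 (-0.45 to 0.27) and Ciita at -0.22 (-0.92 to 0.48).

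The difference between the cohorts in the effect of genotype was tested as an interaction in 1 edgeR fit of all 40 libraries. No member passed, and neither did any other gene (0% of all genes). DESeq2 called no member and 27 genes. All 9 members had a more negative effect in the amyloid cohort, with a median of -0.99, and 6 had an unadjusted p under 0.05 against 10.3% of all genes. H2-Oa had the lowest p (log2 -1.16, SE 0.33, p = 0.00114, edgeR adjusted p = 0.153), followed by H2-DMa (-0.52, SE 0.16, p = 0.00274, adjusted p = 0.207). Without amyloid WT replicate 32 the median was -0.36 and 2 members had an unadjusted p under 0.05, H2-Oa (-0.88) and H2-DMa (-0.40), while H2-Aa was at -0.05. The same interaction is the difference between the cohort effects in WT and in Hom given for each member above.

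Other genes of the class II pathway were taken from lists. For processing in the endosome, 4 of 6 genes rose with the amyloid cohort in WT and 3 of 6 in Hom. Ctss, the cathepsin that removes the invariant chain in antigen-presenting cells, rose by a log2 fold change of 1.97 in WT (edgeR adjusted p = 4.98e-14) and 1.42 in Hom. Ctsl rose by 0.72 and 0.38, Lgmn by 0.47 and 0.26, and Ifi30, the lysosomal thiol reductase, by 0.70 in WT. In the interferon gamma list 4 of 7 tested genes rose in WT, among them Irf8 by 1.77, Irf1 by 0.60 and the receptor chain Ifngr1 by 0.27. In Hom 1 of the 7 passed, Irf8 (1.02). Ifngr1 (0.23) in WT and Lgmn (0.25) in Hom no longer exceeded the fold threshold without amyloid WT replicate 32. None of the 7 factors that hold Ciita at class II promoters passed in either genotype.

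Among costimulatory and partner genes 5 of 7 rose and 1 fell in WT. The T cell ligands Cd86 and Cd80 rose by 1.85 and 1.01, Icosl by 0.55, the class II binding receptor Lag3 by 2.39 and the T cell receptor component Cd3e by 2.60, while Cd4 fell by 0.72 on the log2 scale. In Hom, Cd86 (1.15) and Lag3 (1.25) rose and Cd4 fell by 0.63. Of the T cell list, Cd8a and Cd3g rose by 2.96 and 1.74 in WT and by 2.49 and 1.99 in Hom. Calls lost were Cd3g in WT without amyloid WT replicate 32 (1.45, edgeR adjusted p = 0.0956), and Cd4 (-0.61, adjusted p = 0.0644) and Cd3g (1.98, adjusted p = 0.0544) in Hom without amyloid Hom replicate 19, where Cd3e passed (1.73, adjusted p = 0.0395). No gene of the lists for border macrophages (6 tested), dendritic cells (4), B cells (2) or monocytes (3) passed in WT. Of the remaining marker lists the meningeal gene Slc6a13 rose in WT (0.51) and Hom (0.43), the endothelial gene Cldn5 rose in WT (0.47), the striatal gene Drd1a fell by 0.47 in WT and the thalamic gene Tcf7l2 rose in Hom (0.46). The calls of Cldn5 (adjusted p = 0.0679) and of Slc6a13 in Hom (0.0504) were lost without amyloid WT replicate 32, and that of Tcf7l2 (0.0877) without amyloid Hom replicate 19.

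The effect of genotype on these lists in the amyloid cohort had no edgeR call. Processing genes were lower in Hom for 5 of 6, with a median log2 fold change of -0.32, and Ctss was at -0.72 (adjusted p = 0.0821). Interferon gamma genes were lower for 6 of 7, with a median of -0.18, and Irf8 was at -0.75 (adjusted p = 0.0554). Costimulatory and partner genes were lower for 6 of 7, with a median of -0.37, and Lag3 was at -0.97 (adjusted p = 0.0554). Of the promoter factors 2 of 7 were lower, with a median of 0.05, and Nfya was at -0.32 (adjusted p = 0.0852). Without both libraries that stood apart the medians were -0.26, -0.12, -0.32 and 0.04 in the same order, again with no call.

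Microglial genes moved with the members in these comparisons. All 10 of the list rose with the amyloid cohort in WT and 8 of 10 in Hom. Their summed level ran from 339 to 441 CPM in non-amyloid WT, 374 to 436 in non-amyloid Hom, 621 to 1309 in amyloid WT and 518 to 878 in amyloid Hom. In the amyloid cohort all 10 were lower in Hom, 9 with an unadjusted p under 0.05 and none past the adjusted threshold, with a median log2 fold change of -0.48, and -0.39 without both libraries that stood apart. The lowest adjusted p was that of Tmem119 (-0.66, edgeR adjusted p = 0.0681). In the non-amyloid cohort the median was -0.02. Border macrophage genes summed to 9.77 to 17.3 CPM in amyloid WT and 8.71 to 16.1 CPM in amyloid Hom, and 1 of their 6 genes had an unadjusted p under 0.05.

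With the summed microglial level as a covariate, no member passed in either cohort comparison or in the genotype comparison of the amyloid cohort. Few of all genes did, 0.141% between the cohorts in WT, 0.701% in Hom and 0.00941% for genotype, so the loss of calls was not particular to the members. The median over the members was then -0.31 in WT and -0.28 in Hom between the cohorts, and -0.03 for genotype, with 5 members lower and 4 higher. The microglial level itself differed between the groups, so the covariate takes out part of any group difference, and whether the members followed the number of microglia or their RNA content cannot be told apart here.

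**Figure D4:**
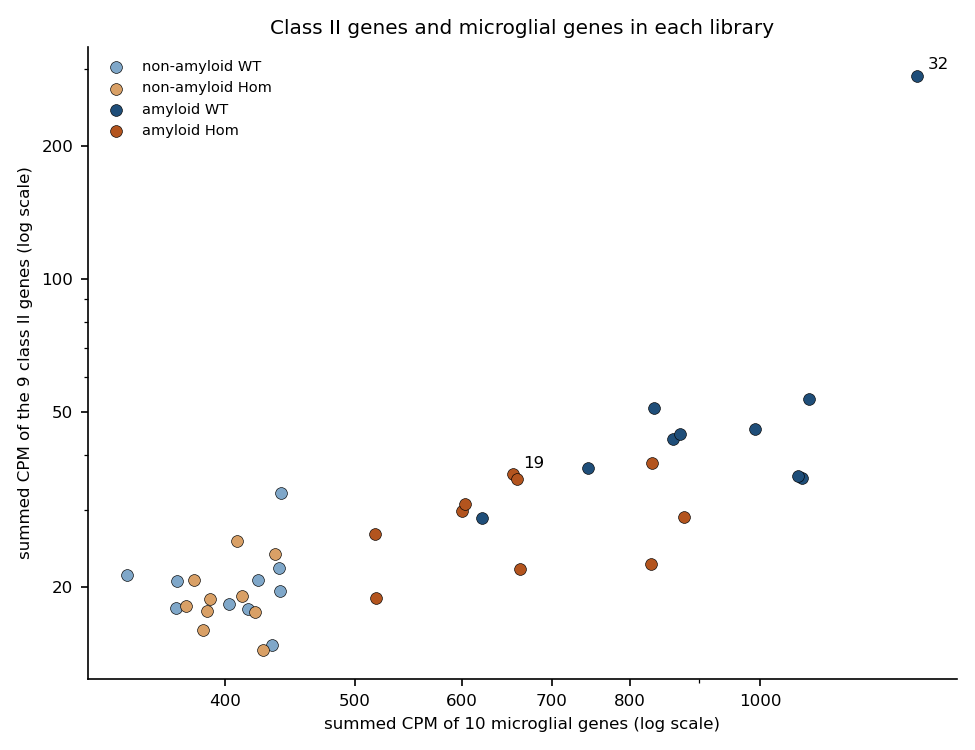
Summed CPM of 10 microglial genes against the summed CPM of the 9 class II members in the 40 libraries, on log axes, with 1 colour for each group. Non-amyloid libraries lie at 339 to 441 CPM of microglial genes, amyloid libraries at 518 to 1309, and amyloid WT replicate 32 lies far above the others in class II at 289 CPM.

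Sex was compared within each cohort. In the amyloid cohort all 9 members were higher in females than in males and none passed the edgeR test, where 0.24% of all genes did. The median log2 fold change was 0.82, and 5 members had an unadjusted p under 0.05, against 7.92% of all genes. Limma-voom called no member, while DESeq2 called Ciita, with 1.18% of all genes, and gave no adjusted p for H2-Aa, H2-Ab1 and H2-Eb1. H2-Oa had the lowest p (0.69, SE 0.21, adjusted p = 0.189). Without amyloid WT replicate 32 the median was 0.25 and 2 members were lower in females. An unadjusted p under 0.05 was then left for 2 members, and for 1 without both libraries that stood apart. Outside the members H2-Ob (0.77), Ctss (0.63) and the microglial gene Fcrls (0.58) rose in females, and all of these calls were lost without amyloid WT replicate 32 (adjusted p = 0.0832, 0.0827 and 0.0513). In the non-amyloid cohort no member passed (0.122% of all genes did), none had an unadjusted p under 0.05, DESeq2 and limma-voom also called none, and the median was 0.02.

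H2-Oa was lower in Hom in amyloid mice of both sexes. Its range was 1.39 to 4.87 CPM in WT females against 0.657 to 1.32 CPM in Hom females, and 1.07 to 1.67 CPM in WT males against 0.460 to 0.989 CPM in Hom males. The 5 Hom and 5 WT libraries of each sex did not overlap, and the share of all genes with such a gap was not counted. H2-Oa had the lowest p of the members in these same libraries, so the split by sex is no separate evidence. All 9 members were lower in Hom in each sex. An unadjusted edgeR p under 0.05 was found for 7 in females and 2 in males, against 15.4% and 3.47% of all genes. The log2 fold change of H2-Oa was -1.25 in females (edgeR adjusted p = 0.0571) and -1.0 in males (adjusted p = 0.629), with 0.179% and 0.00471% of all genes passing in these comparisons. The female value was -0.82 without amyloid WT replicate 32 (adjusted p = 0.131). Of the listed genes Irf8 (-0.91) and Lag3 (-1.12) passed in females with all libraries only, and without that library they were at -0.75 (adjusted p = 0.122) and -0.96 (0.117). Both calls were also lost without amyloid Hom replicate 19 (-0.87 and -1.04). The interaction of genotype and sex had no call (0% of all genes) and no member with an unadjusted p under 0.05, and DESeq2 and limma-voom called none. All 9 interaction values were negative with all libraries and all 9 were positive without amyloid WT replicate 32, with medians of -0.31 and 0.18. Without amyloid Hom replicate 19 the median was -1.10 and 1 member had an unadjusted p under 0.05.

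The H2 members share a chromosome with Trem2, and sequence around a targeted gene can be carried along with the allele. Within 2 Mb of H2-Ab1, 194 other genes were tested and none passed the edgeR test in either cohort. In the amyloid cohort 135 of the 194 were lower in Hom, and 27 had an unadjusted p under 0.05. Of all genes 49.6% were lower and 9.67% had such a p. The window holds other immune genes, so the 194 are no neutral background. Among the 27 were H2-K1, H2-D1, Tap1, Psmb8, C4b and Aif1, lower in Hom, and Hspa1l, H2-Q2 and Gm16279, higher in Hom. The median log2 fold change of the 194 was -0.07. In the non-amyloid cohort 78 were lower and 4 had an unadjusted p under 0.05, against 51% and 4.61% of all genes, and their median was 0.03. Whether sequence carried along with the allele had a part in the values of the H2 members was not tested.

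**Figure D5:**
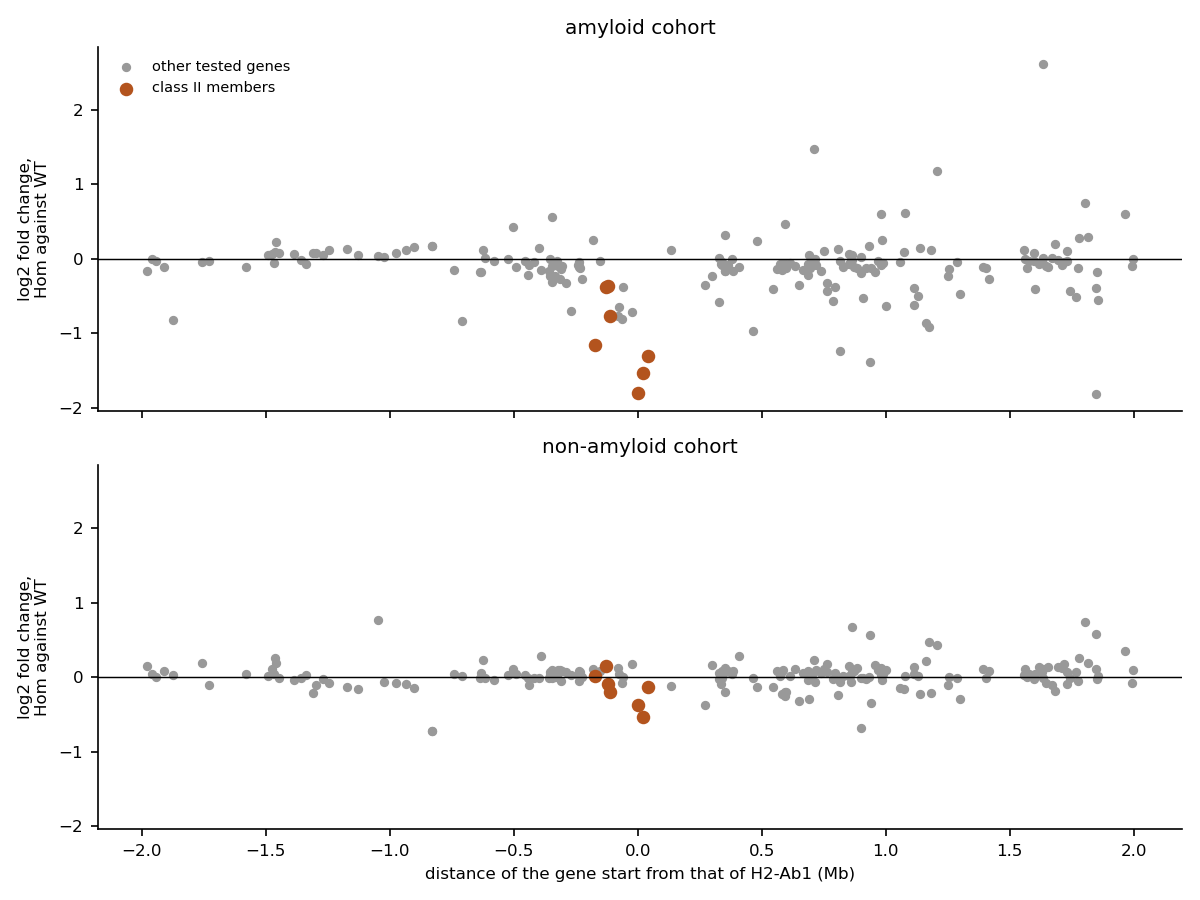
Log2 fold change of Hom against WT for genes within 2 Mb of H2-Ab1, against the distance in Mb from its start, in the amyloid and the non-amyloid cohort, with the H2 members marked. The medians of the 194 other genes are -0.07 and 0.03, and the H2 members run from -1.81 to -0.36 in the amyloid panel.

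The genes whose levels followed Cd74 most closely over the 40 libraries, after the mean of each group was taken out of log2 CPM, were H2-Ab1 (Pearson r = 0.95), H2-Eb1 (0.94) and H2-Aa (0.92). They were followed by Gm28177 (0.79), Tap1 (0.78), H2-DMb1 (0.77), Tapbp (0.75), Psmb9 (0.75) and Psmb8 (0.74). Tap1, Tapbp, Psmb8 and Psmb9 encode the peptide transporter, its class I bridge and immunoproteasome subunits. Without amyloid WT replicate 32 and amyloid Hom replicate 19, over 38 libraries, H2-Ab1 (0.88), H2-Eb1 (0.85) and H2-Aa (0.83) came first again, and Tap1, Tapbp, Psmb8 and Psmb9 were no longer among the 10 nearest. H2-Oa was at 0.58 over 40 libraries and 0.35 over 38, and H2-DMb2 at 0.21 and -0.24. The mean of H2-Aa, H2-Ab1 and H2-Eb1 was nearest to Cd74 in both sets, at 0.97 and 0.92. These values describe libraries that share preparation and sequencing, and carry no test.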

How the data were processed

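Cortical poly-A RNA of 40 mice was sequenced by the study's authors, and the values used are the deposited counts, raw reads per gene on mm10 made by the authors. The submitters' processing notes name STAR 2.5.2b, featureCounts 1.5.1 and edgeR, while the methods name another aligner, and the strand setting is not given in the sources used here. Samples were grouped by cohort and genotype from their labels. The methods exclude 1 unnamed amyloid Hom female on counting and strand checks. No label names it, so all 10 were kept, and the fits may include it.

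Genes that reached 10 counts in 4 or more libraries were tested in R 4.3.3 with edgeR 4.0.16 (TMM normalisation, quasi-likelihood test, Benjamini-Hochberg adjustment over all 21253 genes), called at an adjusted p under 0.05 and a log2 fold change beyond 0.25. Cohorts were fitted separately for genotype and sex, and together for cohort effects and the interaction. Alternatives were DESeq2 1.42.0, other normalisations and filters, sex or microglial level as a covariate, 1 fit of 40 libraries and leaving out each replicate. Leaving out replicate 32, alone or with 19, with or without sex, leaving out either for the other gene lists and for each sex, and limma 3.58.1 voom with quality weights were chosen after seeing the data. Members and lists were chosen with earlier results of these data known. Named genes were the members, listed genes that were called or had the lowest p, and the 10 nearest to Cd74, apart from an item that is not reported here. Transcripts were aligned with BLAST+ 2.17.0. The fits were tested on simulated data. Depth ranged from 41646271 to 105903846 counts. The limit for a count of 0 is 3 counts, for counting error only. The labels name separate mice.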

Additional observations from a re-analysis of the deposited data

Results flagged for a closer look

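In 16 of 36 groups of 10 values (9 members in 4 groups), the highest library stood farther from the next than a Dixon test allows. Chance alone marks about 1 in 20 groups of normally distributed values. The test was run on CPM that were not log-transformed, so that rate need not hold here. Amyloid WT replicate 32 did so for all 9 members, with H2-Aa at 64.9 CPM (next 9.05), H2-Ab1 at 29 (4.17), H2-Eb1 at 33.6 (3.95), H2-DMa at 20.1 (12.5), H2-DMb1 at 5.78 (3.23), H2-DMb2 at 1.18 (0.698), H2-Oa at 4.87 (2.32), Cd74 at 128 (19.8) and Ciita at 1.78 (0.313). Non-amyloid WT replicate 1 did so for H2-Aa at 5.52 CPM (next 3.58), H2-Ab1 at 2.75 (1.39), H2-Eb1 at 4.10 (2.61) and Cd74 at 7.53 (4.53). Single values apart were H2-DMa at 12.6 CPM in amyloid Hom replicate 25 (next 10.1), H2-DMb2 at 0.668 CPM in non-amyloid Hom replicate 35 (0.485) and Ciita at 1.90 CPM in amyloid Hom replicate 19 (0.187). The 9 members share their libraries, so these are not independent.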

How the results depend on the processing

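The number of members called for Hom against WT in the amyloid cohort was 0 as reported, 4 with DESeq2, 2 with sex as a covariate, 6 in 1 fit of all 40 libraries, and 2 with sex as a covariate and amyloid WT replicate 32 left out, alone or with amyloid Hom replicate 19. The share of all genes called was 0.0753% as reported and 1.41%, 1.18%, 2.88%, 0.814% and 0.682% in these fits. Limma-voom and the other normalisations and filters called 0 members. The members called were 0 to 3 when single replicates were left out, with calls without WT replicate 9 (H2-Oa), 13 (H2-Ab1, H2-DMb1 and H2-Oa) or 22 (H2-Oa), which called 60, 204 and 94 genes in all against 16. Between the cohorts, the microglial covariate took the calls from 7 to 0 in WT and from 3 to 0 in Hom, while all calls went from 1689 to 30 and from 1395 to 149, and leaving out amyloid WT replicate 32 gave 5 in Hom. For sex in the amyloid cohort DESeq2 and the fit of 40 libraries each called 1, Ciita, with 1.18% and 1.13% of all genes. With the microglial covariate the amyloid genotype value turned positive for H2-Aa (0.080), H2-Eb1 (0.24), H2-DMb2 (0.015) and Ciita (1.80), and the interaction for H2-Aa (0.50), H2-Ab1 (0.080), H2-Eb1 (0.26), H2-DMb2 (0.016), Cd74 (0.17) and Ciita (1.79). Ciita also turned without amyloid WT replicate 32 (0.78, interaction 1.01), with sex added (0.52) and in the DESeq2 interaction (0.042), and without amyloid Hom replicate 19 it was -1.57 (interaction -1.36). In the non-amyloid cohort H2-Oa, at 0.01, became -0.0024 with upper-quartile normalisation and ranged from -0.11 to 0.082 without single replicates, and H2-Eb1 reached 0.038 without WT replicate 1, with a range from -0.21. The causes were not tested. In all, 118 of the counts of calls stayed within 1.5 times and 13 did not, and of single-gene values 602 kept direction and side of the threshold, 21 newly passed it and 25 changed sign. Low counts limit Ciita and H2-DMb2. No paired analysis was possible because the groups compared share no replicate numbers.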
